A study of Mus musculus with 4 samples.

Results

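The STAT genes encode a family of transcription factors that carry signals from cytokine receptors to the nucleus. They were followed in the RNA of quiescent follicular B cells from the spleens of WT and Ets1-/- mice. The members belong to the family by name, a rule that uses no measured value, and the 6 analysed here are Stat2, Stat3, Stat4, Stat5a, Stat5b and Stat6, out of 23305 genes in the files. All 6 passed the filter on low values, which left 10949 genes for testing.

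WT animals were of the C57BL/6 strain and Ets1-/- animals were C57BL/6 x 129Sv, so strain and genotype cannot be told apart in these libraries. In both groups the mice were female, the labels name no treatment, and their age is not given in the sources used here. The cells were gated as live, B220+, CD23-high and CD21-low, without CD80 and without switched immunoglobulin classes on their surface, and there were 2 biological replicates per genotype. The knockout is carried in every tissue, so these B cells developed in an animal whose other cells carry the same mutation.

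A cytokine brings the chains of its receptor together, and Janus kinases bound to those chains then phosphorylate STAT proteins, which pair and move into the nucleus to bind DNA. The members answer to different cytokines. Stat2 acts in the complex formed after type I interferon, Stat3 after IL-6, IL-10 and IL-21, Stat4 after IL-12, Stat5a and Stat5b after IL-2 and IL-7, and Stat6 after IL-4 and IL-13. SOCS proteins, several phosphatases and PIAS proteins limit the pathway. In follicular B cells IL-4 and IL-21 steer class switching and the response to antigen. Phosphorylation of STAT proteins is not seen by RNA-seq, which gives only the amount of transcript.

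Expression is given as FPKM, a count of sequenced fragments divided by the length of the transcript and by the mapped reads of the library, which allows levels of different genes to be set side by side. The number of reads behind a value is not part of the files, and the depth of the libraries relative to WT replicate 1, read from the steps between low values, ranged from 0.876 to 1.75. The 8 B cell markers summed to between 5517 and 6791 FPKM and were above 0 in every library. Markers of neutrophil granules summed to 111 and 92.3 FPKM in the WT replicates and to 2555 and 699 FPKM in the Ets1-/- replicates, those of macrophages and dendritic cells to 50.8 and 25.2 against 134 and 88.6 FPKM, and those of red cell precursors to 6.76 and 4.37 against 64.7 and 28.2 FPKM. Ets1 itself had 231 and 275 FPKM in WT and 229 and 229.8 FPKM in Ets1-/- libraries. The mutation takes out only some of its exons, and a value over the whole gene cannot check the labels.

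The members lie on 3 chromosomes of mm9 (gene models of GENCODE M1). Stat4 is on chromosome 1 from 52043992 to 52164032 on the plus strand and is the longest of them, with 120 kb. Stat6 and Stat2 share chromosome 10, where Stat6 runs from 127080042 to 127098013 and Stat2 from 127707629 to 127729905, both on the plus strand. Chromosome 11 holds Stat5b from 100642045 to 100712038 on the minus strand, Stat5a from 100720665 to 100746483 on the plus strand, and Stat3 from 100746412 to 100800854 on the minus strand. The gap between Stat5b and Stat5a is 8.6 kb. The ends of Stat5a and Stat3 overlap by 72 bases on opposite strands, and whether the counting used strand is not given in the sources used here.

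Stat5a and Stat5b are near copies of each other, and this bears on how their reads could be divided. Of all stretches of 50 bases in their coding sequences, 608 are shared by both genes, which is 25.9% of those of Stat5a and 26.3% of those of Stat5b, and the longest shared run is 324 bases. No other pair of members shared a stretch of 50 bases. The 60 bases below show one region that is the same in both, followed by the last 60 coding bases of each gene, where the sequences differ. They come from the GENCODE M1 transcripts and are written 5′ to 3′.
Stat5a and Stat5b, shared stretch: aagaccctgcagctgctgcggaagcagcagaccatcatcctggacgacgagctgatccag
Stat5a, last coding bases: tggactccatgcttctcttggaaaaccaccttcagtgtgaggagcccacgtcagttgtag
Stat5b, last coding bases: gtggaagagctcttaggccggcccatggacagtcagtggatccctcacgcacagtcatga
The values of Stat5a and Stat5b are therefore uncertain relative to each other, because reads from the shared stretches can be assigned to either gene.

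Ets1 binds DNA at a GGAA core, and STAT pairs bind at a palindrome with a short spacer. The 250 bases before each RefSeq transcription start of the members (from a table of build GRCm38.p6, placed on mm9 by exact match) were therefore searched on both strands for 4 motifs. The Ets motifs were CGGAAG and its variant AGGAAG. The STAT motifs were TTCNNNGAA and a wider form with 4 bases in place of 3 between its arms. Of all 32841 windows of this length, 13.6% held CGGAAG, 29.5% AGGAAG, 7.02% TTCNNNGAA and 5.85% the wider STAT motif. The members had 9 windows, of which 5 held AGGAAG, 1 held the wider STAT motif and 0 held either of the others. Both windows of Stat4, the member with the largest difference between the genotypes, are shown beside those of Stat3 and Stat6, in lower case with matches to AGGAAG or its reverse complement in capitals.
Stat4, first start, chr1:52043742-52043991, plus strand: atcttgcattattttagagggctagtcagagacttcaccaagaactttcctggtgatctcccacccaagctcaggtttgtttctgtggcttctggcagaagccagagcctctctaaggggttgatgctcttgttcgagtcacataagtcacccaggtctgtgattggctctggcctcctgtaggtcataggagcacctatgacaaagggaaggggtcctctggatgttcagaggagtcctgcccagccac
Stat4, second start, chr1:52064834-52065083, plus strand: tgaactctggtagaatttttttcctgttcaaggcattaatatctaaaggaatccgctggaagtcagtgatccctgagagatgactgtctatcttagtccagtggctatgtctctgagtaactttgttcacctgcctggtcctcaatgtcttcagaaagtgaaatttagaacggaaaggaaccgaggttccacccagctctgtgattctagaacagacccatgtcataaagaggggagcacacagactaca
Stat3, chr11:100800855-100801104, minus strand: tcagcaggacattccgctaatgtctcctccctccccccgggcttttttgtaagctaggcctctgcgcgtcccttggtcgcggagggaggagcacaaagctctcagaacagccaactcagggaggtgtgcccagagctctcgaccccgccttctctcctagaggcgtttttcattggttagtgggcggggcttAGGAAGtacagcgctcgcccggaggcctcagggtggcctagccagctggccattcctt
Stat6, chr10:127079792-127080041, plus strand: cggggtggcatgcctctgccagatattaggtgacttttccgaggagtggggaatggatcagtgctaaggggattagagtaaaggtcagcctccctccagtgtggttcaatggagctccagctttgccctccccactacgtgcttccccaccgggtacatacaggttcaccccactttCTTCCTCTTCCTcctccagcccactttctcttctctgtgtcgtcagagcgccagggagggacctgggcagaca
Neither Stat4 window held any of the 4 motifs, but the GGAA core alone occurs in both of them with other flanks. The window of Stat2 and the second of Stat5b, not shown, held neither Ets motif either. Stat3 had 1 match, starting 58 bases before its start, and Stat6 had 2 side by side, starting 73 and 67 bases before its start. Both windows of Stat5a and the first of Stat5b held 1 AGGAAG each, and the window of Stat2 held the wider STAT motif, starting 210 bases before its start. A match says only that these letters are present, a window without one can still hold a binding site, and binding was not measured in these files.

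The 6 transcripts covered a wide range of levels in WT B cells, all of them above the median of the tested genes. Stat6 was the most abundant, at 88.0 ± 3.34 FPKM (SD, n = 2), above 91.1% of the tested genes. Stat3 came next with 51.4 ± 1.5 FPKM, then Stat2 with 38.2 ± 3.38 FPKM and Stat5b with 27.2 ± 0.566 FPKM. Stat4 followed at 24.7 ± 1.29 FPKM and Stat5a was lowest at 14.4 ± 1.59 FPKM, above 50.8% of the tested genes. The 2 WT values of neighbours in this order did not overlap at any step. The narrowest step was that from Stat5b to Stat4, where the lower Stat5b value was 26.8 FPKM and the higher Stat4 value 25.7 FPKM, and with 2 libraries this step is small.

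In Ets1-/- B cells the order was the same except for Stat4, which came last. Stat6 had 87.8 ± 12.4 FPKM (SD, n = 2), Stat3 60.7 ± 9.91, Stat2 45.1 ± 5.31, Stat5b 25.8 ± 2.80, Stat5a 14.4 ± 2.92 and Stat4 8.68 ± 3.22 FPKM. The values of Stat5a and Stat4 did not overlap, with a lowest Stat5a of 12.3 and a highest Stat4 of 11.0 FPKM.

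**Figure D1:**
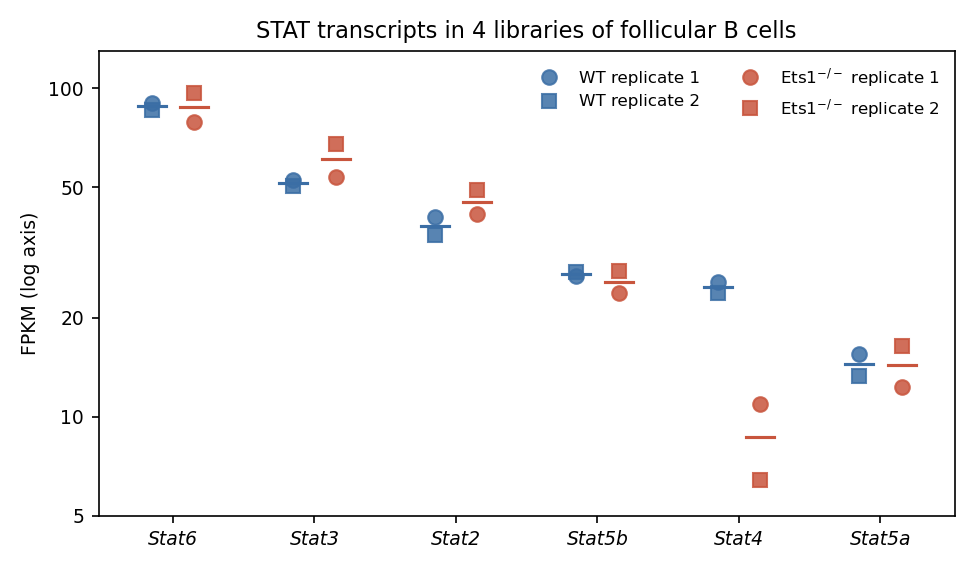
Level of each STAT transcript in FPKM (log axis) in each library, with a point per library, WT in blue and Ets1-/- in red. The 2 Ets1-/- points of Stat4, at 11.0 and 6.41 FPKM, lie below both WT points at 25.7 and 23.8 FPKM, while for Stat5a, Stat5b and Stat6 the points of the genotypes overlap.

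Stat4 carries the signal of IL-12 and is best known in T cells and natural killer cells. It had 25.7 and 23.8 FPKM in the WT replicates, and 11.0 and 6.41 FPKM in the Ets1-/- replicates. Both Ets1-/- values lay below both WT values, and the WT mean was 2.85 times the Ets1-/- mean. The Ets1-/- replicates also differed from each other, by 1.71 times, which is more than for 92.2% of the tested genes in that genotype. The log2 fold change, taken on log2(FPKM + 1) values, was -1.45 (standard error 0.25, 95% confidence interval -2.10 to -0.80), and its adjusted p of 0.0736 from limma missed the threshold of 0.05. Its unadjusted p was 0.0021, from the same limma model, and it stood at place 125 of the 10949 tested genes when ordered from the most negative log2 fold change. The call depended on the setting. Over 17 alternatives the direction stayed the same and 4 of them passed. These 4 include a block that crossed the replicate numbers, chosen after seeing the data, with the lowest adjusted p, 0.00052 in limma. They also include a fit with a single Ets1-/- library. The highest adjusted p of the 17 was 0.447, in the limma test against a 1.5-fold change. Without Ets1-/- replicate 1 the log2 fold change was -1.80 with an adjusted p of 0.0350 in limma, and without Ets1-/- replicate 2 it was -1.11 with an adjusted p of 0.0790. In a bulk sample, fewer cells that hold a transcript and less of it per cell cannot be told apart.

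None of the 6 members was called, where a call needs a 2-fold or larger difference in log2(FPKM + 1) values together with an adjusted p no higher than 0.05. Over all tested genes 1.70% were called, 0.877% higher and 0.822% lower in Ets1-/- B cells. The genotypes did not overlap for 3 of the 6 members, Stat2 and Stat3 with higher and Stat4 with lower values in Ets1-/- libraries, against 41.6% of all tested genes (19.4% higher and 22.2% lower), so this count is near the background. Only Stat4 had an unadjusted p under 0.05. The median log2 fold change of the 6 members was -0.01, and that of all tested genes -0.02.

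Stat6, which answers to IL-4, had 90.4 and 85.7 FPKM in WT and 79.0 and 96.6 FPKM in Ets1-/- libraries. The WT values lay between the Ets1-/- values. The log2 fold change of -0.01 (limma, standard error 0.16, adjusted p = 0.995) had a 95% confidence interval from -0.43 to 0.41, so a 2-fold change in either direction lay outside it.

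Stat3, downstream of IL-6, IL-10 and IL-21, had 52.5 and 50.4 FPKM in WT and 53.7 and 67.7 FPKM in Ets1-/- libraries. Both Ets1-/- values were above both WT values, the first by little. The log2 fold change was 0.23 (limma, standard error 0.17, 95% confidence interval -0.20 to 0.65, adjusted p = 0.704).

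Stat2, the partner of Irf9 in the interferon complex, had 40.6 and 35.8 FPKM in WT and 41.3 and 48.8 FPKM in Ets1-/- libraries. Here too both Ets1-/- values were above both WT values, and the step between the nearest of them was small beside the distance between replicates. The log2 fold change was 0.23 (limma, standard error 0.16, 95% confidence interval -0.17 to 0.64, adjusted p = 0.668).

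Stat5a and Stat5b both answer to IL-2 and IL-7. Stat5a had 15.5 and 13.3 FPKM in WT and 12.3 and 16.5 FPKM in Ets1-/- libraries, with a log2 fold change of -0.01 (limma, standard error 0.19, 95% confidence interval -0.49 to 0.47, adjusted p = 0.995). Stat5b had 26.8 and 27.6 FPKM in WT and 23.8 and 27.7 FPKM in Ets1-/- libraries, with a log2 fold change of -0.08 (limma, standard error 0.14, 95% confidence interval -0.45 to 0.29, adjusted p = 0.911). The genotypes overlapped for both genes. Within a library Stat5b had 1.72 and 2.08 times the FPKM of Stat5a in WT, and 1.93 and 1.68 times in Ets1-/- B cells. The signs of the log2 fold changes of Stat5a and Stat6 turned under other scalings between libraries, and those of Stat5a, Stat5b and Stat6 when a single library was left out, so no direction is given for them.

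**Figure D2:**
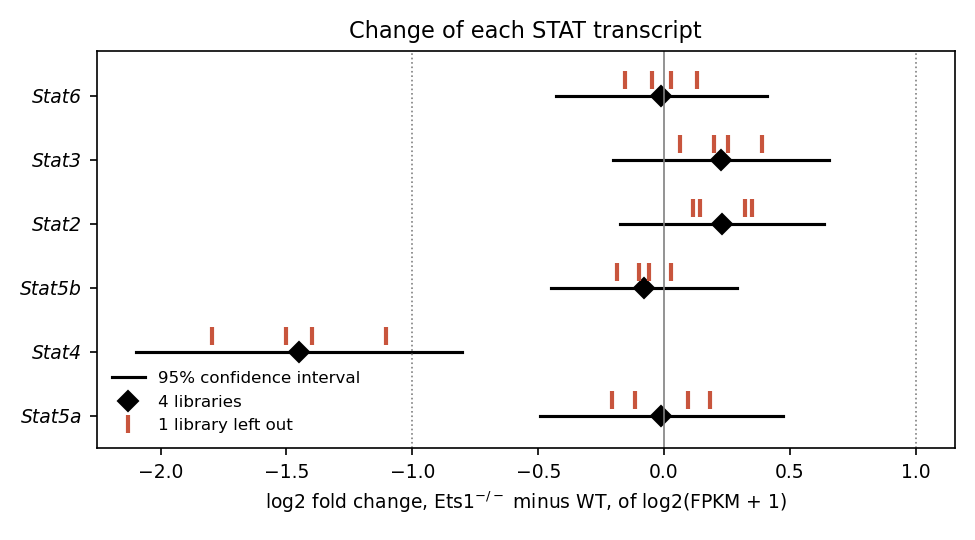
Log2 fold change of each STAT transcript, Ets1-/- minus WT on the log2(FPKM + 1) scale, with diamonds for the value over 4 libraries, black lines for its 95% confidence interval and red ticks for the value when 1 library was left out. Stat4 at -1.45 has an interval from -2.10 to -0.80, and the intervals of the other 5 members include 0.

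Setting each member against the others in the same library takes out the scaling between libraries. Stat4 made up 10.2% and 10.1% of the summed FPKM of the 6 members in the WT replicates, and 4.95% and 2.43% in the Ets1-/- replicates. Its share was lower in both Ets1-/- libraries, and the difference between the means was -6.45 percentage points. An exact permutation test over the 4 libraries, two-sided, gave p = 0.333, the smallest that the 6 possible splits allow. The other 5 members together had 226 and 213 FPKM in WT and 210 and 257 FPKM in Ets1-/- libraries, which overlap. Stat6 held between 35.7% and 36.6% of the sum in every library.

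On the log2(FPKM + 1) scale Stat4 lay below the mean of the other members by differences of -0.56 and -0.57 in WT, and of -1.59 and -2.58 in Ets1-/- libraries. The difference between the genotypes in this measure was -1.52, and the exact permutation test, two-sided, again gave p = 0.333, its smallest value. Against each other member alone, the difference ranged from -1.68 with Stat2 to -1.37 with Stat5b. Without Stat5a and Stat5b, whose reads can be shared, it was -1.60.

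**Figure D3:**
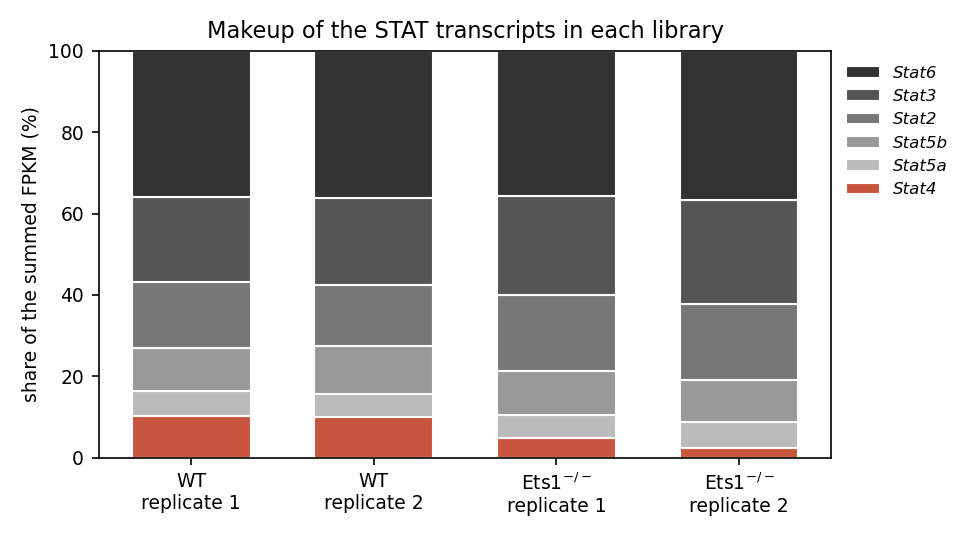
Share of each STAT transcript in the summed FPKM of the 6 members, in percent, for each library. The Stat4 share is 10.2% and 10.1% in the WT libraries and 4.95% and 2.43% in the Ets1-/- libraries, and the Stat6 share stays between 35.7% and 36.6%.

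Stat4 is also a transcript of T cells and natural killer cells, so the markers of these cells are given beside it. The 12 T cell markers summed to 172 and 140 FPKM in WT and to 137 and 180 FPKM in Ets1-/- libraries. These sums overlapped, and 5 of the 12 markers were lower and 2 higher without overlap, where 22.2% and 19.4% of all tested genes were. The 8 natural killer cell markers summed to 42.0 and 27.1 FPKM in WT and to 19.8 and 30.1 FPKM in Ets1-/- libraries, which overlap too. Of these 8, 5 were lower without overlap (Ncr1, Klrb1c, Klrk1, Gzma and Prf1), where 22.2% of all tested genes were. Only 1 was higher without overlap, where 19.4% of all tested genes were. This was Eomes, with 0.829 and 0.922 FPKM in WT and 1.15 and 1.22 FPKM in Ets1-/- libraries. Nkg7 and Gzmb overlapped, and all 8 are named here after their values were seen. Ncr1, a receptor that defines natural killer cells, had 2.42 and 0.957 FPKM in WT and 0.0224 and 0.128 FPKM in Ets1-/- libraries. Ets1-/- replicate 2 had the lowest Stat4 value and, of the Ets1-/- libraries, the higher sum of both marker lists. None of these markers was called and none was listed at 0 in any library. The part of T cells, natural killer cells and the neutrophil transcripts described above in the Stat4 values was not tested.

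**Figure D4:**
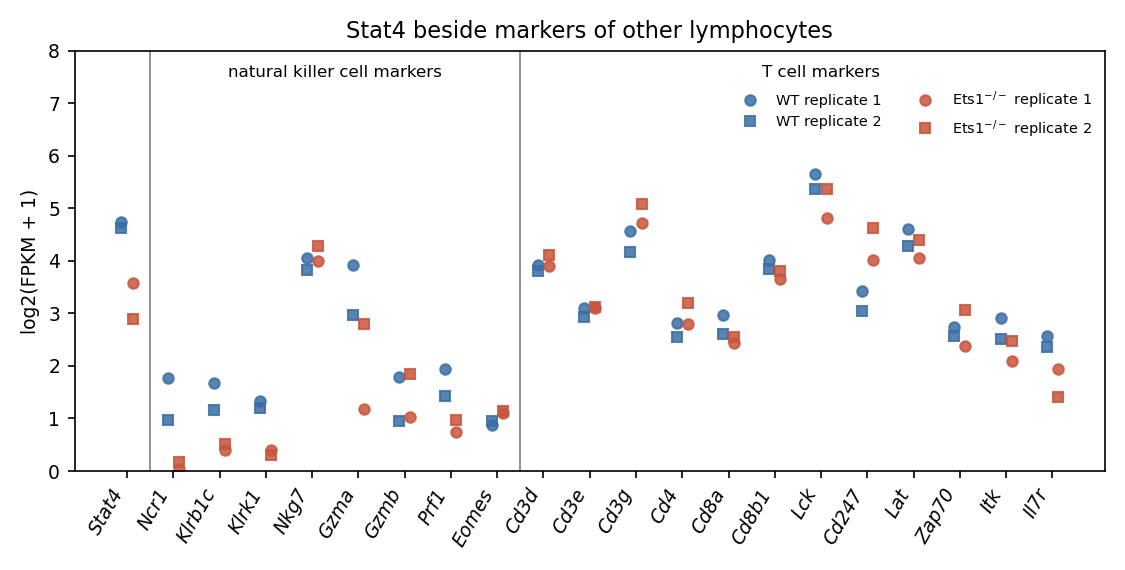
Stat4 beside 8 markers of natural killer cells and 12 of T cells, as log2(FPKM + 1) in each library, with WT in blue, Ets1-/- in red, circles for replicate 1 and squares for replicate 2. Stat4 and 5 natural killer cell markers, Ncr1, Klrb1c, Klrk1, Gzma and Prf1, have both red points below both blue points, Eomes has both above, Nkg7 and Gzmb overlap, and the summed T cell markers of the genotypes overlap.

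The genes whose pattern was most like that of Stat4 were sought by the root mean square difference between log2(FPKM + 1) values, each gene centred on its own mean, over the 4 libraries. Rab20, a small GTPase of vesicle traffic, was nearest at 0.058, with 7.43 and 6.36 FPKM in WT and 2.83 and 1.45 FPKM in Ets1-/- libraries. Slfn5, of the Schlafen family, was at 0.107, with 13.8 and 14.8 FPKM in WT and 5.19 and 3.25 FPKM in Ets1-/- libraries. Gpr137b-ps, annotated as a pseudogene, was also at 0.107, with 6.49 and 6.61 FPKM in WT and 2.14 and 1.35 FPKM in Ets1-/- libraries. The 3 genes were picked for this likeness, so their values are a description. Within 0.1 of it lay 1 tested gene, where between 1088 and 2454 genes lay within 0.1 of each of the other members.

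The rest of the JAK-STAT pathway was followed in lists of its receptors, kinases, inhibitors and partners, and in lists of textbook targets of each STAT protein, 88 genes in all, of which 80 were tested. Of these, 2 were called higher, Ccnd2 and Ccl22, and 2 lower, Il9r and Oasl2, where 0.877% of all tested genes were called higher and 0.822% lower. The genotypes did not overlap for 43 of the 80, against 41.6% of all tested genes, and the median log2 fold change was 0.01, against -0.02 for all tested genes. Of the 48 tested pathway genes 1 was called, and of the 37 tested targets 3 were called, against 1.70% of all tested genes, and with counts this small no difference from that share is read from them.

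The receptor chains upstream of Stat4 were low. Of the IL-12 and IL-23 receptor chains only Il12rb1, the chain that both receptors share, passed the filter on low values, and it had 1.76 and 1.49 FPKM in WT and 3.23 and 5.0 FPKM in Ets1-/- libraries. Its values were higher in both Ets1-/- libraries, the opposite side from Stat4, and the log2 fold change was 0.94 (standard error 0.22, adjusted p = 0.138, limma).

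Of the 3 IL-4 and IL-13 receptor chains upstream of Stat6, 2 passed the filter on low values, and these were abundant. Il13ra1, an IL-13 receptor chain, did not pass, with 0.337 and 0.254 FPKM in WT and 0.291 and 0.215 FPKM in Ets1-/- libraries. Il4ra, the IL-4 receptor, had 106 and 102 FPKM in WT and 125 and 173 FPKM in Ets1-/- libraries (log2 fold change 0.50, standard error 0.20, adjusted p = 0.393, limma). Il2rg, the common chain of many cytokine receptors, had 321 and 278 FPKM in WT and 242 and 262 FPKM in Ets1-/- libraries (-0.25, standard error 0.17, adjusted p = 0.668, limma). The values did not overlap for either gene, with Il4ra higher and Il2rg lower in Ets1-/- libraries, and neither was called.

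Of the 6 receptor chains for IL-6, IL-10, IL-21 and IL-27, whose signals all use Stat3 to some degree, 0 were called. Il21r and Il10ra, the most abundant of them, had log2 fold changes of 0.25 and 0.21, with adjusted p of 0.724 and 0.822 in limma. Il6ra, the IL-6 receptor, had 12.9 and 10.7 FPKM in WT and 4.99 and 5.21 FPKM in Ets1-/- libraries. Both Ets1-/- values lay below both WT values. Its log2 fold change of -1.06 (standard error 0.15) was past the 2-fold limit and its adjusted p of 0.0507 in limma lay just above the threshold. Il27ra had the second largest difference of the list, -0.41, with an adjusted p of 0.625 in limma and overlapping values.

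The receptor chains for IL-2, IL-7, IL-5, TSLP and related cytokines signal largely through Stat5. They held the only called gene of the pathway lists, 1 of 8 tested, where 0.822% of all tested genes were called lower. Il9r, the specific chain of the IL-9 receptor, had 50.2 and 43.5 FPKM in WT and 1.76 and 1.54 FPKM in Ets1-/- libraries. It fell with a log2 fold change of -4.17 (limma, standard error 0.15, adjusted p = 0.0016), and the call held with each library left out in turn. Crlf2, the TSLP receptor chain and the most abundant of the list, had 60.8 and 57.2 FPKM in WT and 41.9 and 51.9 FPKM in Ets1-/- libraries (-0.33, adjusted p = 0.507, limma). Il5ra, the IL-5 receptor chain, had 12.3 and 11.5 FPKM in WT and 31.3 and 17.1 FPKM in Ets1-/- libraries (0.91, adjusted p = 0.259, limma). So 1 receptor chain of this branch was called while Stat5a and Stat5b overlapped between the genotypes.

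Of the 4 interferon receptor chains 0 were called. Ifngr1, the ligand-binding chain for interferon gamma, had 40.4 and 41.5 FPKM in WT and 26.3 and 24.8 FPKM in Ets1-/- libraries, with a log2 fold change of -0.66 (limma, standard error 0.13, adjusted p = 0.0969). Ifngr2, its partner chain, had a log2 fold change of -0.09 (limma, adjusted p = 0.878).

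All 4 Janus kinases were tested and 0 were called. Jak1 had 139 and 128 FPKM in WT and 103 and 111 FPKM in Ets1-/- libraries (log2 fold change -0.32, adjusted p = 0.467, limma). Jak2 had 27.0 and 26.2 FPKM in WT and 22.0 and 16.7 FPKM in Ets1-/- libraries (-0.45, adjusted p = 0.366, limma). Jak3 stood at -0.05 (limma, adjusted p = 0.943). The values of 3 of the 4 kinases were lower without overlap in Ets1-/- libraries, as were those of 22.2% of all tested genes, and with 4 genes nothing is read from this count.

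Of the 8 SOCS inhibitors 6 were tested and 0 called. Socs3, which limits Stat3 signalling and is itself induced by it, had 13.8 and 25.4 FPKM in WT and 40.5 and 45.9 FPKM in Ets1-/- libraries, with a log2 fold change of 1.16 (limma, standard error 0.30, adjusted p = 0.167). Its WT replicates differed widely from each other. Socs1 had 5.28 and 4.10 FPKM in WT and 7.54 and 13.4 FPKM in Ets1-/- libraries (0.97, adjusted p = 0.221, limma), and Socs4 had a log2 fold change of -0.12 (limma, adjusted p = 0.907).

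None of the 10 PIAS proteins, phosphatases and adaptors was called, and their log2 fold changes ran from -0.21 for Sh2b3, an adaptor, to 0.41 for Ptpn1, a tyrosine phosphatase. Ptpn6, the phosphatase SHP-1 and the most abundant of them, had a log2 fold change of 0.08 (limma, adjusted p = 0.952). Pias3, an inhibitor of Stat3, stood at 0.24 (limma, adjusted p = 0.578). None of the 7 partners and coactivators was called either, with a range from -0.27 for Ep300, a histone acetyltransferase, to 0.16 for Ncoa1, a coactivator. Irf9, the partner of Stat2, had 69.0 and 57.3 FPKM in WT and 60.4 and 76.0 FPKM in Ets1-/- libraries (0.11, adjusted p = 0.907, limma), and Nmi had a log2 fold change of -0.15.

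Of the 12 tested targets of the interferon complex that holds Stat2, 1 was called lower, where 0.822% of all tested genes were. The median log2 fold change was -0.20. Oasl2, an interferon-induced antiviral protein, had 4.77 and 3.84 FPKM in WT and 0.144 and 0.146 FPKM in Ets1-/- libraries. It fell by 2.21 on the log2 scale (limma, standard error 0.17, adjusted p = 0.0097). The size depended on the pseudocount, with a log2 fold change of -2.89 for 0.5 and -4.16 for 0.1 in place of 1, and the WT mean was 29.7 times the Ets1-/- mean. Its adjusted p was 0.0509 without Ets1-/- replicate 1 and 0.0566 without Ets1-/- replicate 2. The other targets named here lay on both sides of 0. Irf7, the most abundant, had overlapping values with a log2 fold change of -0.25 (limma, adjusted p = 0.856). Isg15 had 10.6 and 11.3 FPKM in WT and 15.6 and 14.5 FPKM in Ets1-/- libraries (0.42, adjusted p = 0.261, limma), and Ifit2 stood at -0.64 (limma, adjusted p = 0.271).

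Of the 8 tested targets of Stat3, 0 were called, and their median log2 fold change was 0.69. Fos, a subunit of the AP-1 factor, had 687 and 1283 FPKM in WT and 2120 and 2307 FPKM in Ets1-/- libraries (1.24, standard error 0.35, adjusted p = 0.204, limma). Junb, another AP-1 subunit, had a log2 fold change of 0.73 (limma, adjusted p = 0.377) and Cebpb one of 1.18 (limma, adjusted p = 0.418). The values of 5 of the 8 were higher and of 1 lower without overlap, against 19.4% and 22.2% of all tested genes, and the WT replicates of Fos and Cebpb stood far apart. The genes of this list also answer to other signals.

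Of the 5 tested targets of Stat4, 0 were called, and their median log2 fold change was -0.07. Tbx21, which encodes T-bet, had 4.14 and 5.55 FPKM in WT and 3.44 and 3.29 FPKM in Ets1-/- libraries (-0.41, adjusted p = 0.426, limma). Ifng, interferon gamma, had 1.78 and 2.62 FPKM in WT and 4.71 and 2.72 FPKM in Ets1-/- libraries (0.54, adjusted p = 0.510, limma). Hlx had a log2 fold change of -0.52 (limma, adjusted p = 0.314) and Furin one of -0.07 (limma, adjusted p = 0.941). The targets thus lay on both sides of 0.

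Of the 6 tested targets of Stat5, 1 was called higher, where 0.877% of all tested genes were. Ccnd2, which encodes cyclin D2, had 11.9 and 11.1 FPKM in WT and 25.8 and 24.0 FPKM in Ets1-/- libraries. It rose with a log2 fold change of 1.05 (limma, standard error 0.13, adjusted p = 0.0383), close to the 2-fold limit, and was no longer called with any one of the libraries left out, with adjusted p between 0.0773 and 0.283. Nor was it called with no filter on low values (adjusted p = 0.0685, limma), with the replicate number as a block (0.0529) or with the test against a 1.5-fold change (0.442). Bcl2, the survival factor, had a log2 fold change of 0.52 (limma, adjusted p = 0.247) and Pim1, a kinase, one of -0.41 (limma, adjusted p = 0.433).

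Of the 7 tested targets of Stat6, 1 was called, where 0.877% of all tested genes were called higher. The values of 6 of the 7 were higher without overlap, against 19.4% of all tested genes, and the median log2 fold change was 0.50. Ccl22, a chemokine that draws T cells, had 0.263 and 0.283 FPKM in WT and 2.49 and 3.33 FPKM in Ets1-/- libraries. It rose with a log2 fold change of 1.61 (limma, standard error 0.18, adjusted p = 0.0266), which became 2.13 with a pseudocount of 0.5 and 3.0 with 0.1. It was no longer called with no filter on low values (adjusted p = 0.0527, limma), with quantile normalization (0.0534) or with the test against a 1.5-fold change (0.117). Without WT replicate 1, Ets1-/- replicate 1 or Ets1-/- replicate 2 its adjusted p was 0.0555, 0.0509 and 0.0683. H2-Aa and H2-Ab1, chains of MHC class II and the most abundant of the list, had log2 fold changes of 0.15 and 0.22 (limma, adjusted p = 0.920 and 0.853). Il4ra and Socs1, described above, are on this list too. Macrophages and dendritic cells also make Ccl22, and their markers were higher in both Ets1-/- libraries, with a part in the Ccl22 values that was not tested.

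**Figure D5:**
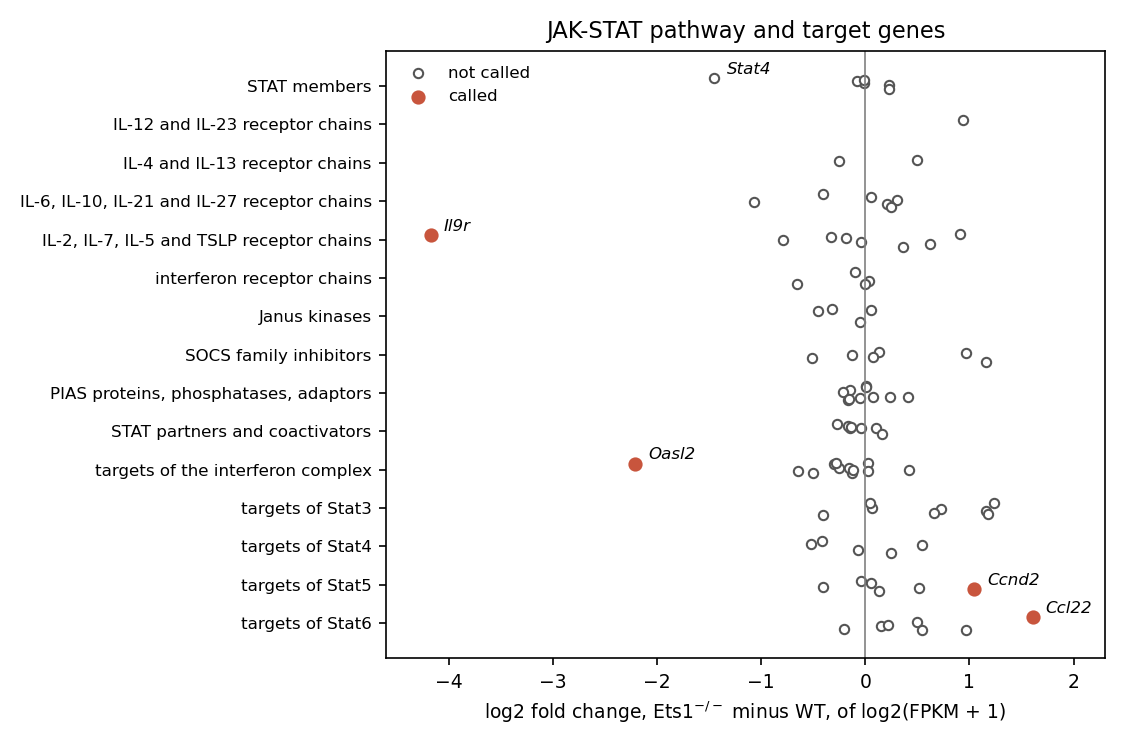
Log2 fold change, Ets1-/- minus WT on the log2(FPKM + 1) scale, of every tested gene in the STAT, pathway and target lists, with 1 point per gene and called genes filled in red. Of the lists shown, the called genes are Il9r at -4.17, Oasl2 at -2.21, Ccnd2 at 1.05 and Ccl22 at 1.61, and Stat4 at -1.45 is not called.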

How the data were processed

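RNA-seq of 4 libraries, 2 WT and 2 Ets1-/-, was analysed. Libraries were made by the authors with a TruSeq kit. Per the submitters' processing notes, TopHat2 2.0.13, Cuffdiff and mm9 were used, and the authors deposited 1 FPKM value per gene symbol and library. The annotation, the scaling between libraries and the use of strand in counting are not given in the sources used here. Reads were not realigned.

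Of 23309 entries, 4 with repeated symbols were left out. The 10949 genes whose mean FPKM reached 1 in WT or in Ets1-/- libraries were fitted on log2(FPKM + 1) with limma 3.58.1 in R 4.3.3 (lmFit, eBayes with trend), with genotype as the only term. P-values were adjusted by Benjamini-Hochberg over all tested genes, and calls required a 2-fold difference or more on this scale and an adjusted p no higher than 0.05. The pseudocount of 1 understates changes of low genes. The script was run on simulated data. Python 3.11.15 (pandas 2.3.3, numpy 2.4.6, scipy 1.17.1) was used for the rest. The limma p-values rest on the spread between 2 libraries per genotype, and cover no other source of variation. The variance of each gene was drawn by eBayes toward a trend over all tested genes. This prior had 3.10 degrees of freedom, beside 2 residual ones, so a p-value does not reflect the spread of its own gene alone.

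The members were taken by name, and the family, the lists, the motifs and the tests were chosen with earlier results of these data known. All members were named. Of each list, every called gene was named, and otherwise the 2 genes with the highest WT mean and the 2 with the largest absolute log2 fold change among those tested, and for Stat4 also the 3 genes most like it. Il13ra1, which was not tested, was named as well. Alternatives covered the pseudocount, the filter, the scaling, the variance estimate, the threshold, a replicate block and each library left out. ChIP-seq and other experiments of the study were not analysed here.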

Additional observations from a re-analysis of the deposited data

How the results depend on the processing

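Stat4 kept its direction in 17 of 17 alternatives, and 4 of them called it. Of the 6 members 1, Stat4, was called with robust variance estimation (adjusted p = 0.0240, limma), with the replicate block and with the crossed pairing, and between 0 and 1 with a library left out. The other 5 members were called in 0 of 85 alternatives. Over all genes the count of 186 became 75 with no filter, 305 with robust variance estimation and 81 with the test against a 1.5-fold change, and ranged from 130 to 144 with a library left out. The count of 4 genes in the pathway and target lists became 2 with no filter and 2 with the test against a 1.5-fold change, and ranged from 1 to 4 with a library left out. The log2 fold change of Stat5a turned to 0.0080 with quantile normalization, 0.027 with upper-quartile scaling and 0.017 with median centring, and that of Stat6 to 0.030 with upper-quartile scaling and 0.017 with median centring. With a library left out the log2 fold changes ranged from -0.21 to 0.18 for Stat5a, from -0.19 to 0.026 for Stat5b and from -0.15 to 0.13 for Stat6. The causes of these differences were not tested. With 2 libraries per genotype and no read counts, the precision of a single value is not known.

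The methods describe no pairing, and the libraries share only a replicate number. Deviations of same-numbered libraries from their genotype means had a correlation across the 10949 genes, which are not independent replicates, of -0.21. With the replicate block 1 member was called, Stat4 with an adjusted p of 0.0189 in limma, and 266 of all genes and 3 of the list genes, without Ccnd2 (adjusted p = 0.0529, limma). The crossed pairing as a block, chosen after seeing the data, called 1 member, 409 of all genes and 7 of the list genes.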
